A study of Gossypium hirsutum with 7 samples.

Results

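HOX3 and HB4 are the homeobox genes of cotton (Gossypium hirsutum) for which the array used here carries a named probe set. HOX3 was read by the probe set Ghi.503.1.S1_at and HB4 by GhiAffx.12783.1.S1_s_at. These 2 genes, of 246 with a name on the array, were chosen by name, with earlier results of these data known. Their ranks among all probe sets are therefore a description. They are read by 2 of the 24132 probe sets in the table, and no further probe set with a single annotated gene bears either name. The suffix of the HB4 probe set marks a set that can read several related transcripts, so the HB4 value may include gene copies or family members.

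RNA was taken from whole ovules on the day the flower opened (0 days post anthesis), at which point the first fibre cells emerge from the ovule epidermis. Plants of 3 genotypes were compared to find genes that GhHD-1, a homeodomain factor, may regulate at that stage. They were GhHD-1 over-expression (3 arrays), GhHD-1 silenced (2 arrays) and wild type (2 arrays), all from glasshouse plants. Arrays within a group are labelled as biological replicates. The labels do not name the promoter of either transgene, the construct used for silencing, or whether a group is 1 transgenic line or several. GhHD-1 itself has no named probe set in the annotation used, and its level in these groups is not reported here.

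Homeodomain proteins are transcription factors that bind DNA through a helix-turn-helix fold. In the plant-specific HD-Zip families the homeodomain is followed by a leucine zipper, through which the proteins pair. HOX3 is a class IV HD-Zip factor, of the group that acts in the epidermis, and in cotton it is known to promote fibre elongation, to pair with GhHD-1, to be held back by a DELLA repressor of gibberellin signalling and to activate the expansin gene EXPA1. In Arabidopsis the factor named HB4 is a class II HD-Zip protein of shade and auxin responses. Whether cotton HB4 shares that role is not known from the sources used here.

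Values are log2 intensities, on which a difference of 1 is a 2-fold change in signal. On each array 5% of the tested probe sets lay below 3.50 to 3.67, and both genes stood far above that floor on every array. The wild-type arrays were less alike (r = 0.981 across probe sets) than the silenced arrays (r = 0.997), and over-expression pairs gave r from 0.985 to 0.995. Wild type was the one genotype whose arrays were not closest to an array of their own group: replicate 1 correlated most with silenced replicate 1 (r = 0.987) and replicate 2 most with over-expression replicates 3 and 1 (r = 0.992 and 0.991). Whether an array carries the wrong label was not tested. A reporter control probe set, RPTR-Ghi-U57609-2_s_at, also set wild-type replicates 1 and 2 apart, at 5.09 and 11.88, while the over-expression arrays read 5.91 to 8.81 and the silenced arrays 9.73 to 9.84. For HOX3 and HB4 each comparison with wild type is therefore given with and without each wild-type array. The differences of other genes from wild type are given from all 7 arrays only, and how far they depend on either wild-type array is not shown. Fibre and epidermis markers were detected in all groups. Of their 10 probe sets, from 7 genes, 3 to 5 lay below 5 on an array. Their mean log2 level was 6.78 to 7.23 in over-expression, 6.89 to 6.92 in silenced ovules and 6.65 to 7.25 in wild type. The 6 maturing-embryo probe sets averaged 6.40 to 6.68, 6.65 and 6.36 to 6.67 in the same groups. On every array 3 of the 6 lay below 5, and the probe sets of LEGB differed from each other, with wild-type means of 9.50 and 3.09. The average is therefore not a measure of how much of that tissue was present. No green-tissue or pollen marker was annotated.

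HOX3 read lowest in silenced ovules. HOX3 and GhHD-1, the gene altered in these plants, are related class IV HD-Zip genes, and whether the HOX3 probe set also reads GhHD-1 transcripts was not tested, so the order of the groups may not be that of HOX3 RNA alone. The log2 intensities of the HOX3 probe set were 10.90, 10.25 and 10.90 on over-expression replicates 1, 2 and 3, 9.94 and 10.06 on silenced replicates 1 and 2, and 10.16 and 10.60 on wild-type replicates 1 and 2. Both silenced arrays thus lay below the other 5, an arrangement that 9.95% of all tested probe sets also showed. Over-expression replicate 2 stood 0.65 below the highest over-expression array and lay between the wild-type arrays. The group means were 10.68 ± 0.37 in over-expression (SD, n = 3), 10.00 ± 0.09 in silenced ovules (SD, n = 2) and 10.38 ± 0.31 in wild type (SD, n = 2).

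HB4 took the opposite order, with its highest readings in silenced ovules. It read 8.94, 9.68 and 9.12 on over-expression replicates 1, 2 and 3, 10.42 and 10.65 on silenced replicates 1 and 2, and 9.52 and 9.30 on wild-type replicates 1 and 2. Both silenced arrays lay above the other 5, as they did for 9.52% of all tested probe sets, and over-expression overlapped wild type. The nearest array of another group was over-expression replicate 2, which lay 0.74 below the lower silenced array. The group means were 9.25 ± 0.38 in over-expression (SD, n = 3), 10.53 ± 0.16 in silenced ovules (SD, n = 2) and 9.41 ± 0.16 in wild type (SD, n = 2).

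**Figure D1:**
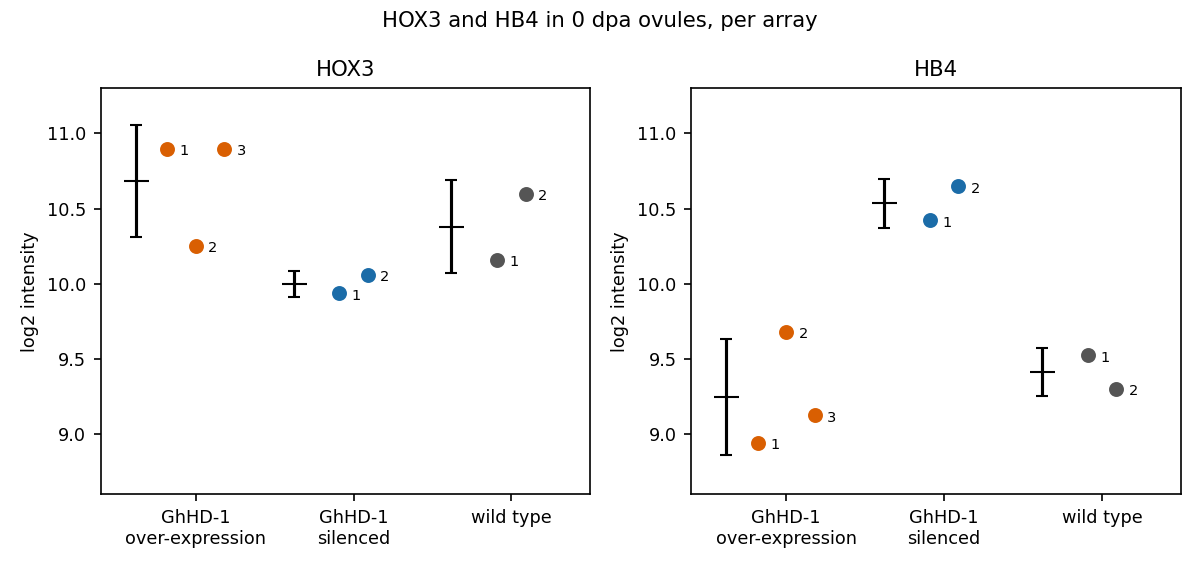
Log2 intensity (vertical axis) of HOX3 (left panel) and HB4 (right panel) on each array, by genotype; numbers beside the points are replicate numbers, and the black bars to their left are group means with SD. The silenced arrays are the lowest for HOX3, at 9.94 and 10.06, and the highest for HB4, at 10.42 and 10.65.

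The spread among the over-expression arrays was wide for both genes. HOX3 ranged over 0.65 log2 units there and HB4 over 0.74, against a median range of 0.27 over all tested probe sets; 89.9% of the probe sets had a smaller range than HOX3 and 92.6% a smaller range than HB4. In silenced ovules the ranges were 0.12 for HOX3 and 0.23 for HB4, and in wild type 0.44 and 0.22.

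Over-expression against silenced ovules gave the largest differences of both genes, in opposite directions. HB4 was 1.29 lower on the log2 scale in over-expression (log2 difference -1.29, SE 0.22, 95% interval -1.81 to -0.76), which is a signal 2.44-fold lower than in silenced ovules. HOX3 differed by 0.68 (SE 0.23, 95% interval 0.13 to 1.24), a 1.61-fold higher signal. The 3 over-expression arrays and the 2 silenced arrays did not overlap for either gene: 17.8% of probe sets were separated with over-expression higher, as HOX3 was, and 16.1% with over-expression lower, as HB4 was. Neither gene passed the test after adjustment over all probe sets, with limma adjusted p = 0.133 for HB4 and 0.314 for HOX3 (unadjusted p = 0.000692 and 0.0219).

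Limma called 5 of 23977 probe sets in this comparison, or 0.0209%, and an unadjusted p under 0.05 was reached by 12.1%. HB4 stood close to the front of that order, since 121 probe sets (0.505%) had a smaller p; for HOX3 the number was 1662 (6.93%). In an exact permutation test of the arrays alone, two-sided over 10 arrangements, HB4 gave p = 0.1, the smallest that this design allows, and HOX3 p = 0.2. The call for HB4 changed when over-expression replicate 2 was left out. Without it HB4 differed by -1.50 (SE 0.15, limma adjusted p = 0.0361) and passed, and HOX3 differed by 0.90 (SE 0.17, adjusted p = 0.143). The number of probe sets called was 37 without that array and 0 without over-expression replicate 1 or 3. Leaving out either wild-type array gives the same fit as the compared groups alone, since a single wild-type array adds nothing to the spread. With array weights, which let limma down-weight the more variable arrays, both genes passed with all 7 arrays kept (limma adjusted p = 0.0112 for HB4 and 0.0362 for HOX3). That fit called 1209 of 23977 probe sets, against 5 without weights. The weights lowered the SE of HB4 to 0.16 in this comparison. In both comparisons with wild type they raised it, to 0.25.

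In silenced against wild-type ovules HB4 had the wider difference of the pair. Its signal was 2.18-fold as high in silenced ovules, a log2 difference of 1.12 (SE 0.24, 95% interval 0.54 to 1.70), and the lower silenced array stood 0.90 above the higher wild-type array. The difference did not pass (limma adjusted p = 0.172, unadjusted p = 0.00253), although 352 of 23977 probe sets (1.47%) had a smaller p. It came to 1.23 when wild-type replicate 1 was left out and to 1.01 when replicate 2 was, and did not pass in either fit. Only 110 further probe sets differed as far in the same direction.

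HOX3 differed by -0.38 between silenced and wild-type ovules (SE 0.26, 95% interval -0.98 to 0.22, limma adjusted p = 0.519), so that the interval covers both a lower level and a slightly higher one. Its groups did not overlap, but the gap was 0.10, and 21.8% of probe sets were separated with silenced lower; for HB4 the matching share, with silenced higher, was 23.6%. The HOX3 difference depended on which wild-type array was used, at -0.60 against replicate 2 alone and -0.16 against replicate 1 alone. Limma called 0 of 23977 probe sets (0%) in this comparison, while 14.5% had an unadjusted p under 0.05. Leaving out wild-type replicate 1 raised the count to 73 and leaving out wild-type replicate 2 to 35; in these fits wild type is a single array, whose spread is borrowed from the other genotypes. The exact permutation test gave p = 0.333 for each gene, the smallest possible with 2 arrays against 2.

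Over-expression against wild type showed no detectable difference of either gene with these arrays. HOX3 differed by 0.30 (SE 0.23, 95% interval -0.25 to 0.85, limma adjusted p = 0.616) and HB4 by -0.16 (SE 0.22, 95% interval -0.69 to 0.36, adjusted p = 0.781). The arrays of the groups overlapped for both genes. The intervals leave room for an HOX3 signal up to 1.81-fold higher and an HB4 signal up to 1.62-fold lower in over-expression. The HOX3 difference came to 0.08 when wild-type replicate 1 was left out and to 0.52 when replicate 2 was. That of HB4 was -0.05 and -0.28 in the same fits, -0.01 without over-expression replicate 1 and -0.38 without over-expression replicate 2. Limma called 1 probe set (0.00417%), and 10.4% had an unadjusted p under 0.05. It called 475 when wild-type replicate 2 was left out and 0 when any other single array was. The comparisons of either genotype with wild type share the same wild-type arrays, so their values are not independent of each other.

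**Figure D2:**
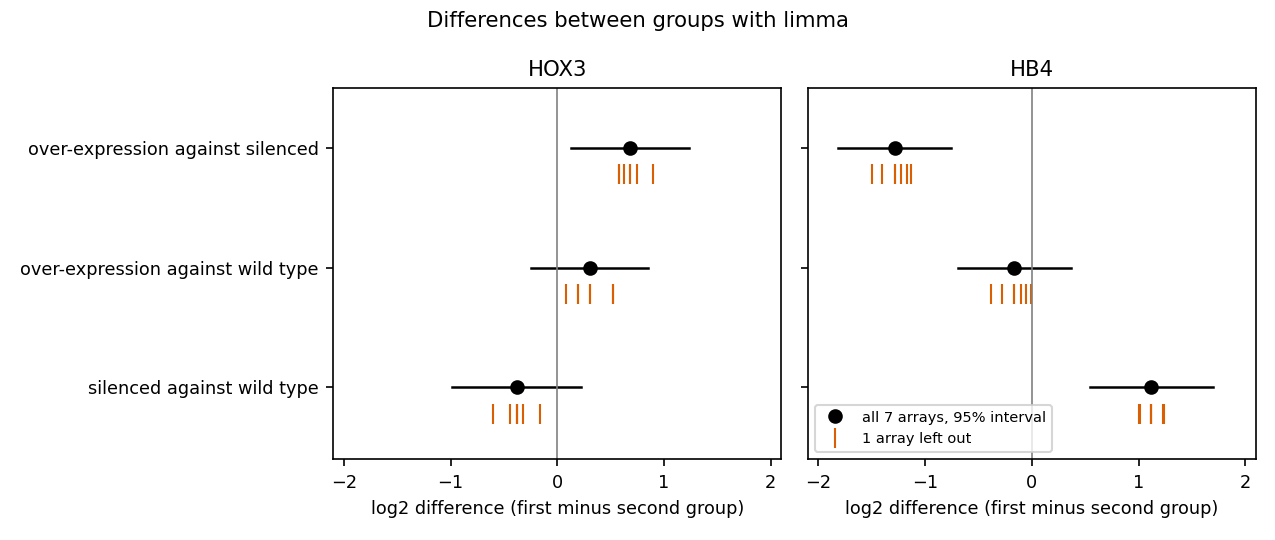
Log2 difference (horizontal axis, first minus second group) of HOX3 and HB4 in the 3 comparisons; black points and lines are the fit of all 7 arrays with its 95% interval, and orange ticks are the fits with 1 array left out. The intervals exclude 0 for both genes in over-expression against silenced and for HB4 in silenced against wild type, before any adjustment over probe sets.

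**Figure D3:**
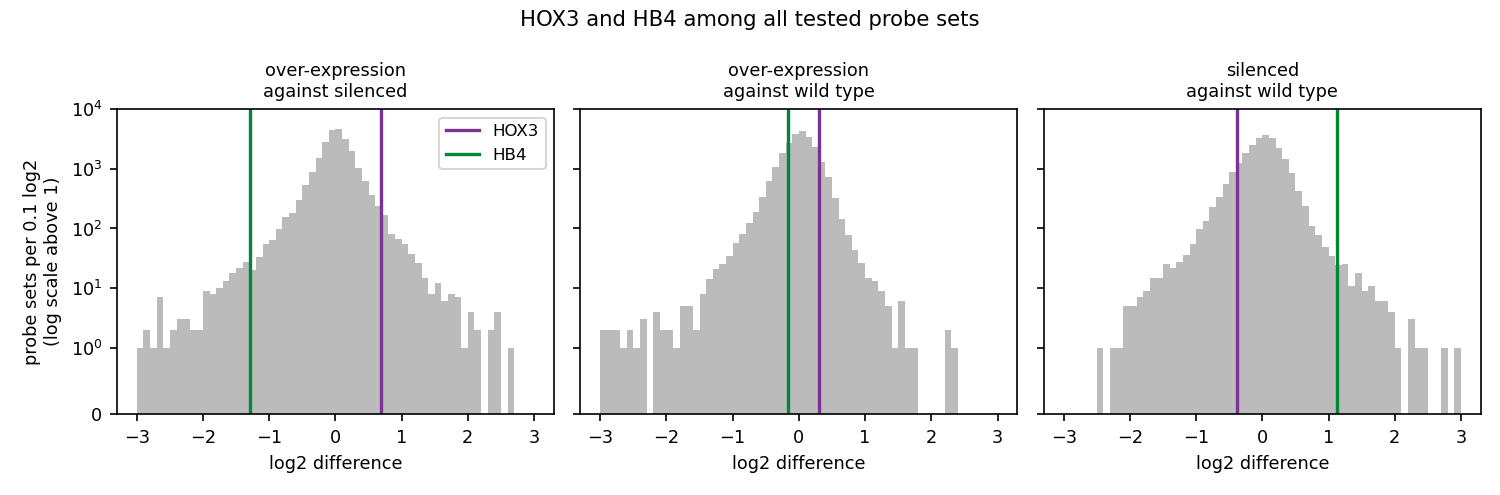
Number of probe sets (vertical axis, log scale above 1) by log2 difference (horizontal axis, bins of 0.1) in each comparison, with HOX3 and HB4 as vertical lines; 13 probe sets in over-expression against silenced, 5 in over-expression against wild type and 0 in silenced against wild type lie beyond 3 log2 units and are not drawn. HB4 lies in the outer part of the distribution at -1.29 and 1.12 in the comparisons with silenced ovules and near its centre, at -0.16, in over-expression against wild type.

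In the order of HOX3 levels, over-expression lay above wild type and wild type above silenced, and in that of HB4, silenced lay above wild type and wild type above over-expression. Neither of the neighbouring pairs in either order passed the test.

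Array by array, a high HOX3 reading went with a low HB4 reading. Over the 7 arrays Pearson's r between them was -0.88 and Spearman's rho -0.89, given as a description, because the arrays fall into 3 genotypes. The mirror image held inside over-expression, where replicate 2 had the lowest HOX3 and the highest HB4 value, and inside wild type, where replicate 1 had the lower HOX3 and the higher HB4 value. In silenced ovules replicate 2 had the higher value of both. Of 13921 probe sets that ranged over at least 0.5 log2 units, members aside, 1.21% had a lower correlation with HOX3 than HB4 did, and 1.71% a lower one with HB4 than HOX3 did.

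**Figure D4:**
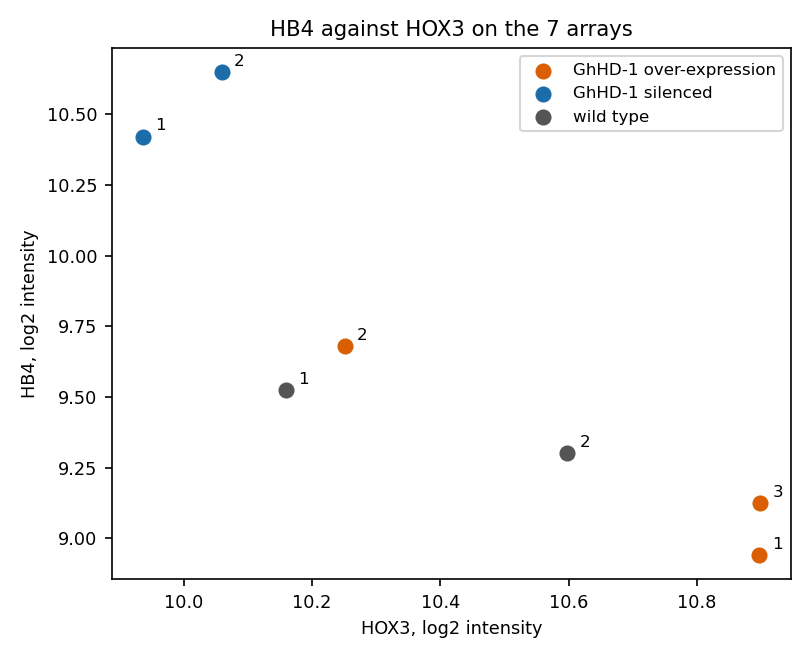
HB4 log2 intensity (vertical axis) against HOX3 log2 intensity (horizontal axis), 1 point per array, coloured by genotype and numbered by replicate. The points run from the silenced arrays at the upper left to over-expression replicates 1 and 3 at the lower right, with over-expression replicate 2 beside wild-type replicate 1.

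The named genes most like HOX3 across the 7 arrays included a DELLA gene and the expansin EXPA1. GAI2, named for the DELLA repressors of gibberellin signalling, had the highest Pearson correlation with HOX3 of 210 named probe sets with a range of at least 0.5 (r = 0.97). It read 11.36, 11.03 and 11.31 in over-expression, 10.72 and 10.74 in silenced ovules and 10.81 and 11.10 in wild type, in replicate order. As for HOX3, both silenced arrays lay below the other 5, as they did for 9.95% of all tested probe sets. The ranking by correlation over these same arrays selects for such a likeness. EXPA1, of a family of proteins that loosen the cell wall, followed as the third (r = 0.93), at 9.42, 8.58 and 9.37 in over-expression, 8.26 and 8.11 in silenced ovules and 8.34 and 9.53 in wild type. Its probe set is annotated to a locus that carries several expansin names and can read several related transcripts.

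The remaining 3 of the 5 most alike were the MYB factor gene listed as MYB5 and MYB6 (r = 0.97), the germin-like gene Glp1 (r = 0.92) and the MAP kinase gene MPK23 (r = 0.91). The lowest correlations belonged to the probe sets named MYB (r = -0.92), MYB1 (r = -0.92) and RAV1 (r = -0.91); the other 2 RAV1 probe sets gave r = -0.48 and -0.39. Among all 13921 probe sets ranked, 135 (0.970%) reached r of at least 0.9 with HOX3. None of these named genes passed limma in any of the 3 comparisons.

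MYB1, a MYB factor gene, was the named gene most like HB4 (r = 0.97). It read 7.90, 8.69 and 8.06 in over-expression, 10.00 and 9.99 in silenced ovules and 9.00 and 8.08 in wild type. Both silenced arrays lay above the other 5, as for HB4 and for 9.52% of all tested probe sets. Over-expression replicate 2 was again the highest of its group. MYB1 was picked by its correlation over these same arrays, which selects for this likeness. The difference between over-expression and silenced ovules was -1.78 (SE 0.32, limma adjusted p = 0.135). The other probe sets most like HB4 were grlk5 (r = 0.95), the NAC factor gene listed as NAC5 and NAC8 (r = 0.94), the ACC oxidase gene ACO1 of ethylene synthesis (r = 0.93) and the fasciclin-like gene FLA19 (r = 0.93). A further ACO1 probe set did not share the pattern (r = -0.01), while the other 2 probe sets of FLA19 gave r = 0.81 and 0.85.

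Least like HB4 were 2 of the 3 probe sets of a further expansin gene, EXPA4, at r = -0.98 and -0.93, and DFR of anthocyanin synthesis, at r = -0.95. The third EXPA4 probe set, Ghi.704.1.S1_at, gave r = -0.90. It read 7.87, 7.22 and 7.93 in over-expression, 6.84 and 6.92 in silenced ovules and 7.97 and 7.93 in wild type, so its silenced arrays were the lowest too. The first EXPA4 probe set, Ghi.704.1.A1_s_at, read 11.19, 10.83 and 11.19 in over-expression, 10.46 and 10.34 in silenced ovules and 10.96 and 10.89 in wild type. Both silenced arrays were the lowest there, as for 9.95% of all tested probe sets, and the choice by correlation with HB4 favours that order. Its differences were 0.67 for over-expression against silenced (SE 0.14, limma adjusted p = 0.170) and -0.53 for silenced against wild type (SE 0.16, adjusted p = 0.232). Among all probe sets ranked, 162 (1.16%) reached r of at least 0.9 with HB4.

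**Figure D5:**
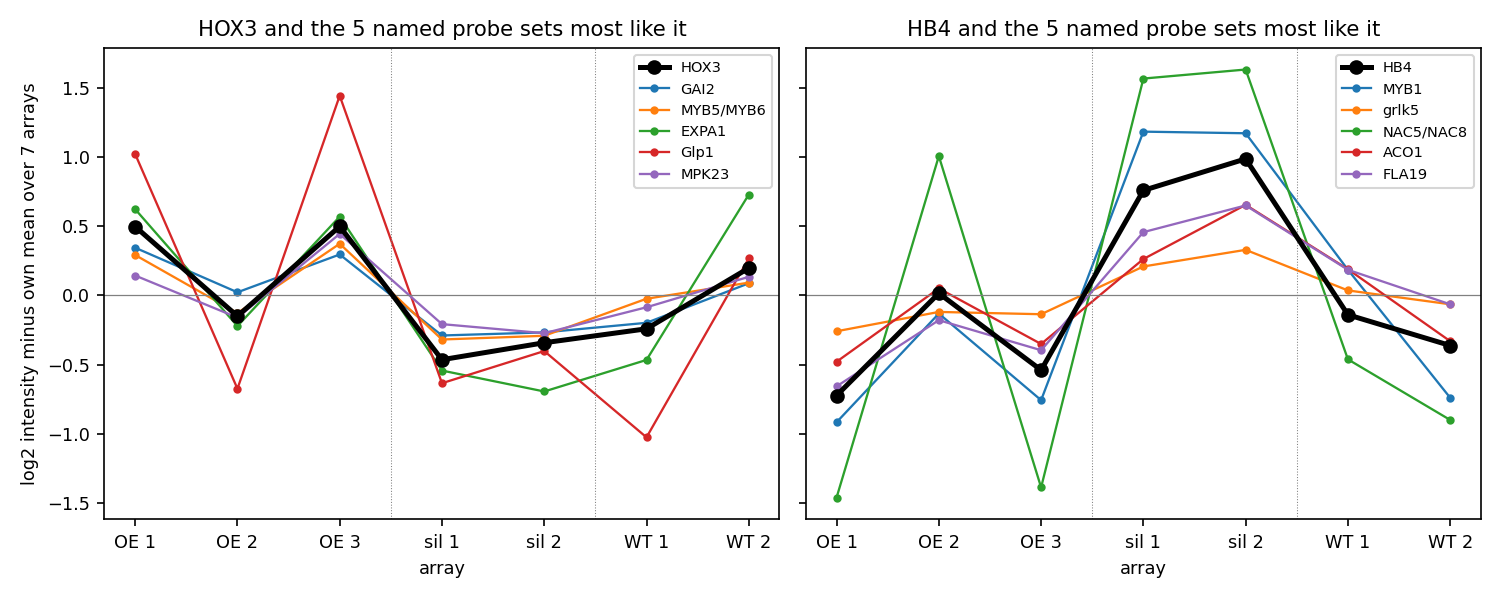
Log2 intensity minus each probe set's own mean over the 7 arrays (vertical axis) on each array (OE, over-expression; sil, silenced; WT, wild type; number, replicate) for HOX3 and HB4 (black) and the 5 named probe sets most like each (colours). On the left the silenced arrays lie below each mean, and on the right above it. The coloured probe sets were picked for this likeness. Over-expression replicate 2 lies nearer to the silenced arrays than replicates 1 and 3 do, for HOX3 and HB4 alike.

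Gibberellin genes bear on HOX3 because DELLA proteins bind it, and 3 probe sets of 3 such genes were annotated. None of them was called in either direction in any comparison. GAI2 differed by 0.50 between over-expression and silenced ovules (SE 0.14, limma adjusted p = 0.248), by 0.28 between over-expression and wild type and by -0.22 between silenced and wild type. GID1-4, a gibberellin receptor gene, had values of 7.24 ± 0.18 in over-expression (SD, n = 3), 7.54 ± 0.07 in silenced ovules (SD, n = 2) and 6.86 ± 0.12 in wild type (SD, n = 2), so wild type was the lowest. Its differences were 0.68 for silenced against wild type (SE 0.15, limma adjusted p = 0.175) and 0.39 for over-expression against wild type (SE 0.14, adjusted p = 0.455). GID1-2, a further receptor gene, had its highest mean in wild type, at 8.84 ± 0.75 in over-expression (SD, n = 3), 8.77 ± 0.07 in silenced ovules (SD, n = 2) and 9.23 ± 0.53 in wild type (SD, n = 2). It differed by 0.08 between over-expression and silenced ovules (SE 0.42), by -0.39 between over-expression and wild type (SE 0.42) and by -0.46 between silenced and wild type (SE 0.46), with limma adjusted p of 0.967, 0.725 and 0.656. The medians of the list were 0.08 for over-expression against silenced, 0.28 for over-expression against wild type and -0.22 for silenced against wild type, where all tested probe sets had medians of 0.01, 0.02 and 0.02. With 3 probe sets each median of the list is the value of a single gene. It is GID1-2 in over-expression against silenced and GAI2 in both comparisons with wild type.

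Fibre genes, among them EXPA1, a target of HOX3, were read by 17 probe sets of 12 genes. None was called in any comparison. Between over-expression and silenced ovules 10 had higher and 7 lower values (median 0.02, all tested probe sets 0.01), and EXPA1 differed by 0.94 (SE 0.38, limma adjusted p = 0.398). Between silenced and wild type 12 had higher and 5 lower values (median 0.07), with EXPA1 at -0.75 (SE 0.42, limma adjusted p = 0.453). The smallest p of the list in all 3 comparisons belonged to a beta-tubulin gene listed as BTub1 and BTub2. Its silenced arrays were the highest, as for HB4 and for 9.52% of all tested probe sets. It read 4.24, 4.21 and 3.90 in over-expression, 4.67 and 4.53 in silenced ovules and 3.28 and 3.86 in wild type, levels close to the floor of 3.50 to 3.67. Its differences were -0.48 for over-expression against silenced (SE 0.20, limma adjusted p = 0.394), 0.55 for over-expression against wild type (SE 0.20, adjusted p = 0.452) and 1.03 for silenced against wild type (SE 0.21, adjusted p = 0.158). After it in over-expression against wild type came both probe sets of CesA1, a cellulose synthase gene, at 0.42 and 0.43, and the third in over-expression against silenced was H6L at -0.41. E6, a gene of elongating fibres, read 10.62, 9.73 and 10.62 in over-expression, 9.85 and 9.69 in silenced ovules and 10.09 and 10.70 in wild type. Over-expression replicate 2 and wild-type replicate 1 were the low arrays of their groups for E6, EXPA1 and HOX3. EXPA1 had been picked by its correlation with HOX3, and the rest of the fibre list was mixed. Both probe sets of CesA1 and of LTP3, a probe set of Pel, Rac13 and the alpha-tubulin gene TubA1 had the same low arrays. Some of these read close to the floor, such as Rac13 at 3.77 to 4.10. Fb2, Sus1, H6L, the BTub1 and BTub2 gene, the other Pel probe set and those of TubA4 did not share both low arrays. In replicate order, Fb2 read 8.80, 8.98 and 8.87 in over-expression, with 8.83 and 8.80 in wild type. The readings of Sus1 were 13.27, 13.43 and 13.51 in over-expression, with 13.61 and 13.39 in wild type.

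The mean of the 10 fibre and epidermis marker probe sets had its low arrays where HOX3 had them in over-expression and in wild type. It was 7.23, 6.78 and 7.08 in over-expression, 6.92 and 6.89 in silenced ovules and 6.65 and 7.25 in wild type. The marker list includes EXPA1 and E6. In whole ovules fewer cells of a type and less RNA per cell cannot be told apart, and the part of these marker levels in the HOX3 values was not tested.

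Trichome-type regulators were listed by gene name, as MYB, bHLH and WD-repeat genes. Some factors of these families act beside class IV HD-Zip factors in the plant epidermis. Whether each listed gene does so is not known from the annotation. The list held 11 probe sets of 10 genes, of which none was called. Between over-expression and silenced ovules 7 had higher and 4 lower values, with a median of 0.29 beside 0.01 over all tested probe sets. MYB1 aside, the smallest p there belonged to MYB5 and MYB6 at 0.48 (SE 0.16, limma adjusted p = 0.313) and to GHTTG1, a WD-repeat gene, at 0.29 (SE 0.10, adjusted p = 0.319). GHTTG1 read 9.68, 9.68 and 9.72 in over-expression, 9.39 and 9.40 in silenced ovules and 9.79 and 9.64 in wild type. Its silenced arrays were thus the lowest, as for 9.95% of all tested probe sets. Its spread was narrower than that of HOX3 in each group. Against wild type the medians were 0.07 for over-expression and 0.05 for silenced ovules, each beside 0.02 over all tested probe sets. The bHLH gene bHLH110D had the smallest p in over-expression against wild type, at a difference of 0.74 (SE 0.18, limma adjusted p = 0.407), and MYB1 the smallest in silenced against wild type, at 1.45 (SE 0.35, adjusted p = 0.190). GHTTG1 followed in silenced against wild type, at -0.32 (SE 0.11, limma adjusted p = 0.277).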

How the data were processed

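The table the authors deposited holds a log2 intensity for each probe set on 7 one-colour Affymetrix cotton arrays, 1 sample each. The tools named, per the submitters' processing notes, are RMA, limma and R 2.7.1, with no role or order given. RMA equalises array distributions, so global shifts between groups are removed.

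After 103 AFFX and 52 RPTR controls were set apart, 23977 probe sets were tested. Names came from the platform annotation (697 probe sets with 1 gene, 46 with several, 23234 with none listed) through the aliases of the RefSeq table of Gossypium_hirsutum_v2.1; 324 had a name. No coordinates or sequences are given.

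Group differences were fitted with limma 3.58.1 (R 4.3.3) over all 7 arrays (1 mean per group, default eBayes, 4 residual and 3.01 prior degrees of freedom), two-sided, with Benjamini-Hochberg adjustment over all tested probe sets within a comparison and a threshold of 0.05; the procedure was tested on simulated data. With only 2 or 3 arrays in a group, their number sets the precision. The genes to name were both members, up to 3 members of each list with the smallest p, and the named probe sets with the 5 highest and 3 lowest correlations with each member; values are given for some of these. The members and lists were chosen with earlier results of these data known. Alternatives were a replicate block, other normalizations, priors, weights, filters and leaving out each array.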

Additional observations from a re-analysis of the deposited data

Results flagged for a closer look

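Outside the cotton genes, the reporter control probe set RPTR-Ghi-A06498-1_at stood 5.41 log2 units higher on the lowest silenced array than on the highest wild-type array. It read 4.63, 4.66 and 4.39 in over-expression, 9.99 and 10.15 in silenced ovules and 4.08 and 4.59 in wild type, so it was high on the silenced arrays alone. Its means were 10.07 in silenced ovules and 4.34 in wild type. No rule was applied to flag single arrays far from the rest of their group in HOX3 and HB4, because no group has 4 arrays. Over-expression replicate 2 was singled out above from its values and from the fits that left out each array.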

How the results depend on the processing

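In the 16 alternatives run for each gene and comparison, the direction of HOX3 and HB4 stayed the same. Many of these could not change it. Settings that alter only the prior, the filter or the arrays outside a comparison leave its difference as it was. Neither gene passed against wild type in any of them. In over-expression against silenced, array weights gave -1.37 for HB4 (limma adjusted p = 0.0112) and 0.80 for HOX3 (adjusted p = 0.0362), and leaving out 1 array gave -1.50 to -1.13 for HB4; without over-expression replicate 2 HB4 passed. Adjusted p over all alternatives ran from 0.0112 to 0.862 for HB4 and from 0.0362 to 0.902 for HOX3 in that comparison.

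Deviations of same-numbered arrays from their group means correlated between -0.31 and 0.15. In a group of 2 arrays the deviations mirror each other, so these correlations cannot show whether the replicate numbers pair the arrays. With the replicate number as a block, over-expression against silenced gave -1.22 for HB4 (limma adjusted p = 0.506) and 0.58 for HOX3 (adjusted p = 0.660), and 0 probe sets were called in each of the 3 comparisons. Replicate 3 exists in over-expression alone, so the block takes that array out of the comparison. Both differences equal those of the fit without it, and the block fit is no separate check of pairing.

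The count of 5 probe sets called in over-expression against silenced was 238 with only those groups fitted. It was 9 with median centring, 1209 with array weights, 0 at an adjusted p of 0.01 and 0 to 37 with 1 over-expression array left out. The count of 1 in over-expression against wild type was 0 with only those groups fitted, with cyclic loess, with array weights and at 0.01, and 0 to 475 with 1 array left out. The count of 0 in silenced against wild type was 7 with a robust prior and 0 to 73 with 1 array left out. The cause of these changes was not tested. HOX3 and HB4 stood far above the array floor; groups of 2 or 3 arrays and moderated SDs of 0.26 for HOX3 and 0.24 for HB4, above the median of 0.16 over all tested probe sets, set their standard errors.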
